A study of Mus musculus with 25 samples.

Results

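Surgical destabilization of the medial meniscus (DMM) makes a mouse knee joint unstable, so that osteoarthritis develops over the following weeks. The question here was how the dorsal root ganglia of such mice differed between a late and an early time after surgery. The comparison was made of the 3 arrays of DMM mice at 16 weeks with the 3 arrays of DMM mice at 4 weeks, which were 6 of the 25 arrays of the study, across all 20260 named genes that passed a filter on dim signals, of 30142 named genes on the array. That filter lay below the typical level of the negative control probes, so it did not remove all genes at background level.

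All mice were male C57BL/6, and the tissue was lumbar ganglia (L3-L5). Surgery, DMM or sham, was on the right knee of mice aged 10 weeks, and tissue was taken 4, 8 or 16 weeks later, when the mice were 14, 18 or 26 weeks old. Naive mice had no surgery and were taken at the same ages. There were 9 groups of 3 arrays, except sham at 8 weeks, which had 1. The labels give neither the side of the ganglia nor the number of animals behind each array, so the p-values measure only the spread between these arrays, which may be technical. DMM mice at 16 weeks were also older than those at 4 weeks, and within the DMM groups age and time after surgery cannot be told apart. The same interval in naive and sham mice is therefore given beside many of the results.

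Dorsal root ganglia contain the somata of limb sensory neurons, each wrapped by satellite glia, together with Schwann cells, macrophages, vessels and a connective tissue sheath. After nerve damage these neurons switch on a growth programme led by transcription factors such as Atf3 and Jun. After sudden activity or stress, cells raise immediate early genes such as Fos, Egr1 and Nr4a1 for a short time. Whole ganglia were measured, so fewer cells of a type and less RNA per cell cannot be told apart.

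The tissue fitted its label. The 13 measured sensory neuron markers had a mean of 15.32 to 15.43 on the log2 scale on the DMM arrays at 4 weeks and of 15.37 to 15.51 at 16 weeks, and 0 of them passed the test. All values below are deposited log2 values of 1 probe set per gene, and a difference is the mean at 16 weeks minus the mean at 4 weeks on that scale, with its standard error (SE). Differences were tested with limma, with Benjamini-Hochberg adjustment over the 20260 genes and a threshold of 0.05. The pairwise correlation of the 6 arrays across genes was 0.993 to 0.998, and the median difference over all genes was -0.02. At the median spread an unadjusted 95% interval reached 0.203 to each side. To pass after adjustment, a difference at that spread had to be larger still. Differences of this size or somewhat above were therefore mostly not detectable with 3 arrays a group.

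Between 4 and 16 weeks after DMM surgery, 173 genes of small nuclear RNAs, 59 of small nucleolar RNAs and 6 immediate early genes fell. The lipid transfer gene Pltp, the clock gene Per3, the channel gene Trpc5 and 4 glutathione transferase genes were among those that rose. In all, 582 of 20260 genes (2.87%) passed the test, 218 higher at 16 weeks (1.08%) and 364 lower (1.80%). At an unadjusted p under 0.05 there were 3725 (18.4%). The sizes of the called differences ran from 0.175 to 2.09, with a median of 0.53. In 578 of the 582 the 3 arrays at one time all lay on one side of the 3 at the other, against 22.8% of all genes tested. The calls were made from these same arrays, so this follows largely from the selection and is no added support. The 4 called genes whose arrays overlapped were Pnpla2, Sap130, Egr1 and Rnu3a. Some copies of small RNA genes held identical values, and the 582 genes had 503 distinct sets of values.

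The number of calls rested on single arrays. Without DMM replicate 1 at 4 weeks it fell to 9, and without DMM replicate 2 at 16 weeks to 105. It was 321 and 262 without replicates 2 and 3 at 4 weeks. A fit of these 6 arrays alone called 4 genes. Quantile normalization on top of the deposited values gave 122 genes higher and 1111 lower, and cyclic loess 159 and 528, so the share of calls that were higher moved from 37.5% to 9.89% and 23.1%. None of the 582 changed direction in any of these fits, but only the added normalizations left this open for most genes. In 578 the arrays of the 2 times did not overlap, so leaving 1 array out cannot turn the sign. The fit of these 6 arrays alone keeps the difference itself.

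Most of the lower calls were not protein-coding. Small nuclear RNAs (snRNA) are the RNA parts of the spliceosome, and small nucleolar RNAs (snoRNA) guide the chemical modification of ribosomal RNA. Of 689 snRNA genes tested, as typed in RefSeq, 173 fell and 0 rose, and of 626 snoRNA genes 59 fell and 1 rose. The share called lower was 25.1% of snRNA and 9.42% of snoRNA genes, against 0.714% of the 13865 protein-coding genes and 1.80% of all genes. The 173 snRNA genes had 108 distinct sets of values in all, and the 689 tested had 617. Near-identical copies cannot be told apart, and the share of 25.1% counts such copies more than once. The median difference was -0.52 over the snRNA class and -0.21 over the snoRNA class.

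The mean over all snRNA genes was 9.35, 9.23 and 9.26 on the 3 DMM arrays at 4 weeks. At 8 weeks it was 9.21, 8.91 and 9.09, and at 16 weeks 9.04, 8.65 and 8.80. The 3 arrays at 16 weeks were all below the 3 at 4 weeks, and replicate 2 was the lowest. The snoRNA mean was 9.17, 9.09 and 9.16 at 4 weeks and 8.95, 8.81 and 8.98 at 16 weeks, again without overlap. The mean over protein-coding genes lay between 8.07 and 8.13 on the same 6 arrays. Without replicate 2 at 16 weeks 51 snRNA genes still fell, and without replicate 1 at 4 weeks 0 did, with class medians of -0.42 and -0.48. The snRNA genes also fell in naive mice, where 381 passed (12.7% of all genes were called lower there; class median -0.62), while in sham mice 0 passed (0.834% of all genes; class median -0.13). The sham snRNA means were 9.21, 9.27 and 9.24 at 4 weeks and 9.01, 8.96 and 9.40 at 16 weeks. Sham replicates 1 and 2 at 16 weeks thus lay below all sham arrays at 4 weeks, and replicate 3 above them. The change in DMM minus the change in sham passed for 0 snRNA genes.

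**Figure D1:**
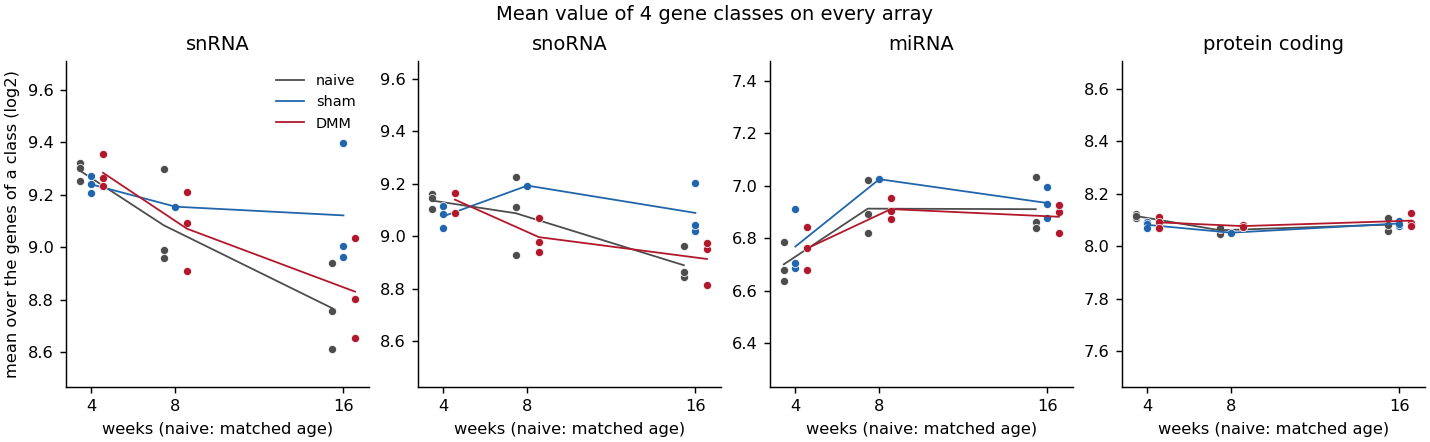
Mean deposited value (log2) over all tested genes of 4 RNA classes, 1 point per array, against weeks after surgery or the matched age, with lines through the group means of naive, sham and DMM mice. The 3 DMM snRNA points at 16 weeks (8.65 to 9.04) lie below those at 4 weeks (9.23 to 9.35), while the protein-coding means of the same DMM arrays lie between 8.07 and 8.13.

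Among the snoRNA genes, Snord70 was 14.04, 13.63 and 14.05 at 4 weeks and 12.49, 12.75 and 11.78 at 16 weeks, a difference of -1.57 ± 0.33 (SE; limma adjusted p = 0.017). Snord42a was 15.79, 15.68 and 15.86 and then 14.68, 14.19 and 14.30 (-1.39 ± 0.21; limma adjusted p = 0.0066). Both are C/D box snoRNAs, the kind that guide ribose methylation, and neither gene's groups overlapped. Snord104 (-1.11), Snord110 (-1.03) and Snord15a (-0.95) fell as well. Snord15a was 1 of the 4 genes that had already passed the test between 4 and 8 weeks (0.0197% of genes), all lower at 8 weeks. The others were the predicted snoRNA gene Gm25835, the pseudogene Gm12481 and Col15a1. The snoRNA of largest difference was Gm24494, at 15.93, 15.32 and 15.35 and then 13.83, 13.42 and 13.08 (-2.09 ± 0.50). These small RNA genes, like the microRNA genes below, were chosen after their values were seen. In naive mice the differences of Snord70 and Snord42a were -1.39 and -1.51, and in sham mice -0.09 and -0.80.

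Some microRNA genes rose. A microRNA is cut from a hairpin and represses messenger RNAs that pair with its seed, bases 2 to 8. Of 344 microRNA genes tested, 15 rose (4.36%, against 1.08% of all genes) and 0 fell, with a class median of 0.10, while quantile normalization gave 15 higher and 9 lower and cyclic loess 13 and 3. Of the 15, 8 were copies of Mir467a, and these hold only 2 sets of values between them. The class mean was 6.68, 6.76 and 6.84 at 4 weeks and 6.90, 6.82 and 6.93 at 16 weeks, so the groups overlapped. Without replicate 1 at 4 weeks 0 passed. The mature sequences below are shown because they belong to the 5 of the 15 that have an entry in the RefSeq table (GRCm38.p6). The seed is in capitals, and no seed is shared. The array reads the gene, and which arm its probes match is not given in the sources used here.
mmu-miR-5125: uCUGCCUGggauuuccuugu
mmu-miR-325-5p: cCUAGUAGgugcucaguaagugu
mmu-miR-325-3p: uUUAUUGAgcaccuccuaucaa
mmu-miR-344f-5p: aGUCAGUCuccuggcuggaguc
mmu-miR-344f-3p: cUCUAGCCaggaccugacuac
mmu-miR-701-5p: uUAGCCGCugaaauagaugga
mmu-miR-701-3p: uAUCUAUUaaagaggcuagc
mmu-miR-1969: aAGAUGGAgacuuuaacaugggu

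The mature mmu-miR-5125 lies at chr17:23823339-23823358 on the plus strand. Its gene Mir5125 was 9.67, 10.11 and 9.31 at 4 weeks and 10.59, 10.85 and 11.33 at 16 weeks (1.23 ± 0.28; limma adjusted p = 0.026). Mir325, on the X chromosome, was 10.79, 10.86 and 11.14 and then 11.74, 11.85 and 11.89 (0.90 ± 0.18; limma adjusted p = 0.012). Every array of either gene at 16 weeks was above every array at 4 weeks. Mir344f rose by 0.60, Mir701 by 0.60 and Mir1969 by 0.34. Mir5125 rose by 1.51 in naive and 1.39 in sham mice, both past the threshold (6.08% and 0.928% of all genes were called higher in them), and Mir325 by 0.79 in naive mice, with 0.50 in sham mice.

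Of the protein-coding genes, 165 rose and 99 fell. The naming rule takes the 12 largest differences in each direction and is not limited to protein-coding genes. By this rule the genes higher at 16 weeks were EU599041, Slc9b2, Phxr4, Pltp, Lncpint, Rtl4, Leng8, Per3, Trpc5, Cited2, Aopep and Alg3. Those lower were Ddit4, Nr4a1, Stmn4, Vmn1r208, Eef1e1, Lynx1, Dusp18, Ier2, Egr3, Col15a1, Smim15 and Stbd1. The higher ones differed by 0.62 to 1.21 and the lower ones by -0.53 to -0.85. Without replicate 1 at 4 weeks 1 of these 24 stayed past the threshold (EU599041), and 8 did without replicate 2 at 16 weeks. Without replicate 3 at 4 weeks 16 did, and without replicate 3 at 16 weeks 14. A fit of the 6 compared arrays alone kept 0 of the 24.

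Pltp encodes phospholipid transfer protein, which moves phospholipids between lipoproteins. It was 9.27, 9.29 and 9.41 on the 4-week arrays, 9.92, 9.45 and 10.15 on the 8-week arrays and 10.12, 10.64 and 10.39 on the 16-week arrays. The difference was 1.06 ± 0.18 (2.08-fold; limma adjusted p = 0.0076), with no overlap between 4 and 16 weeks. Pltp also rose in naive mice (0.65) and in sham mice (1.05). Slc9b2, a sodium/proton exchanger, was 6.55, 6.65 and 6.83 and then 7.68, 8.27 and 7.39 (1.10 ± 0.23; 2.14-fold; limma adjusted p = 0.018). It rose by 0.87 in naive mice and was 0.89 higher in sham mice without passing there. Markers of fibroblasts and meninges, the sheath of the ganglion, were uneven between the same arrays. The mean of the 19 measured ones was 9.16, 9.04 and 9.57 at 4 weeks and 10.06, 10.70 and 8.39 at 16 weeks, so replicate 2 was highest and replicate 3 lowest. None of the 19 passed, their median difference was 0.42, and their part in these results was not tested.

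The gene EU599041 had the largest called difference of the named higher genes, from 7.30, 7.64 and 7.31 to 8.35, 8.52 and 9.01 (1.21 ± 0.18; limma adjusted p = 0.0067). Phxr4 and Lncpint are long non-coding RNAs, the latter a transcript induced by p53. They rose by 1.07 and 1.02. Rtl4, a gene derived from a retrotransposon, rose by 0.89, and Leng8 by 0.89. Cited2 encodes a co-regulator that binds CBP and p300. It was 9.03, 9.23 and 9.06 and then 9.61, 10.25 and 9.59 (0.71 ± 0.16; limma adjusted p = 0.028). At 8 weeks Cited2 was already 9.59, 9.94 and 9.98, within the range seen at 16 weeks. Aopep, an aminopeptidase, and Alg3, a mannosyltransferase of N-glycan assembly, rose by 0.63 and 0.62. They lost the call in 10 and 9 of 15 alternative fits, the most of the 24 genes. EU599041 was 0.87 higher in naive mice, where it passed, and 0.62 higher in sham mice, where it did not. Cited2 rose in sham mice (0.68) and was at 0.27 in naive mice without passing.

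Trpc5 encodes a cation channel of the TRP family that is known in sensory neurons for responses to cold. It was 6.65, 6.88 and 6.88 on the 4-week arrays, 7.49, 7.37 and 7.0 on the 8-week arrays and 7.28, 7.52 and 7.74 on the 16-week arrays (0.71 ± 0.16; limma adjusted p = 0.025). The 3 values at 16 weeks and the 3 at 8 weeks were all above those at 4 weeks. Trpm3, a heat-activated channel of the same family, was 9.79, 9.84 and 9.77 and then 10.14, 10.40 and 10.01 (0.39 ± 0.10; limma adjusted p = 0.048). They were the 2 members called among 11 TRP genes tested (median -0.04), against 1.08% of all genes called higher. Trpm3 lost its call in 10 of 15 alternative fits and Trpc5 in 5. Trpv1 and Trpa1, the capsaicin and irritant receptors, differed by 0.12 and 0.24 without passing. Trpc5 rose by 0.91 in naive mice and was at 0.50 in sham mice without passing, while Trpm3 differed by 0.18 in naive and 0.02 in sham mice without passing.

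**Figure D2:**
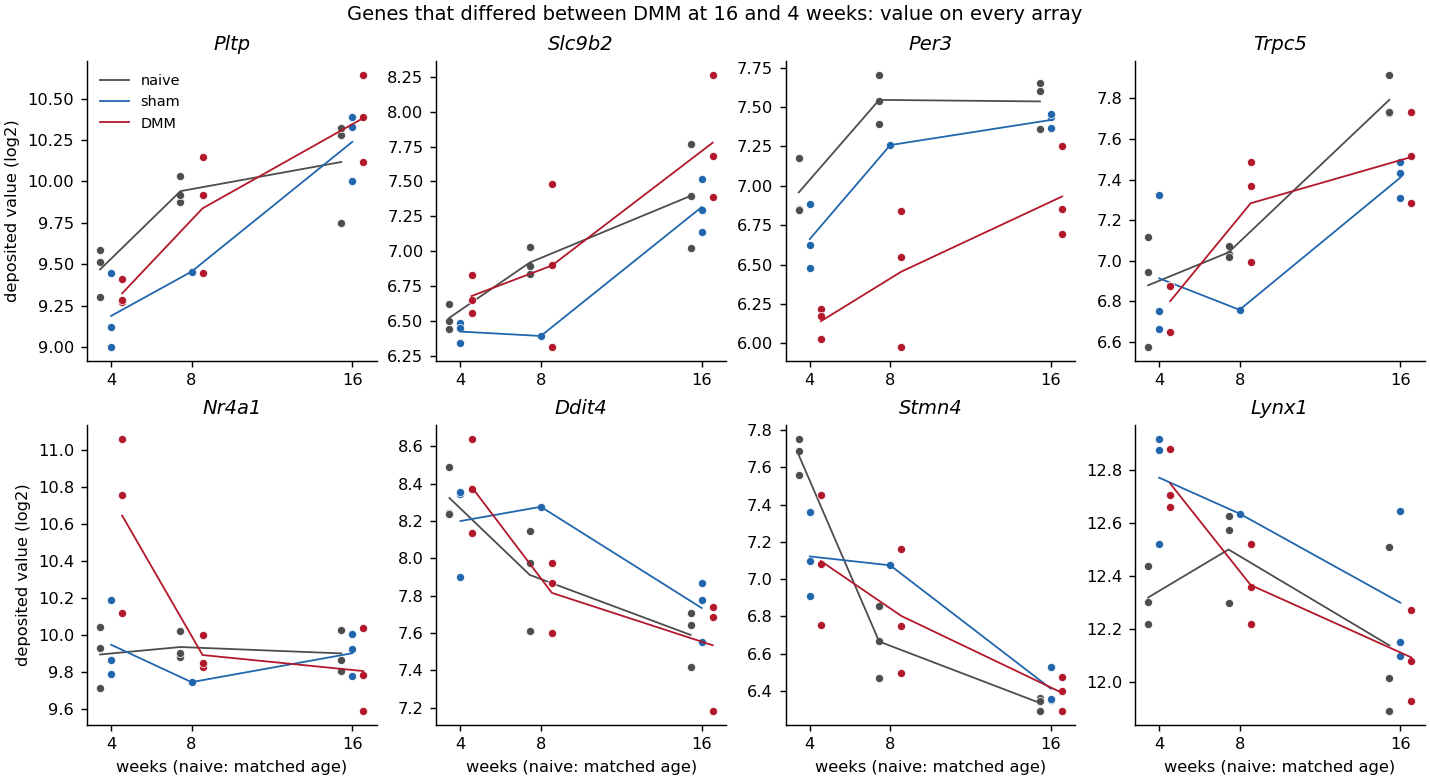
Deposited value (log2) of 8 genes on every array against weeks after surgery or the matched age, with 1 point per array, lines through group means, and colours for naive, sham and DMM mice. In each panel the DMM points at 16 weeks lie wholly above (Pltp, Slc9b2, Per3, Trpc5) or wholly below (Nr4a1, Ddit4, Stmn4, Lynx1) those at 4 weeks, and Nr4a1 is high in DMM mice at 4 weeks (10.12 to 11.06).

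Immediate early genes were lower at 16 weeks. Their products are transcription factors and signal regulators made within minutes of a stimulus. Of 19 tested, 16 were below 0 and 6 fell past the threshold, namely Nr4a1, Egr1, Ier2, Egr3, Nr4a3 and Arc, against 1.80% of all genes. The median of the list was -0.34, against -0.02 over all genes. Nr4a1, an orphan nuclear receptor, was 11.06, 10.76 and 10.12 at 4 weeks and 9.79, 10.04 and 9.59 at 16 weeks (-0.84 ± 0.17; limma adjusted p = 0.014). The groups did not overlap, and replicates 1 and 2 at 4 weeks were the high ones. At 8 weeks it was 9.83, 9.85 and 10.00, near the level at 16 weeks. Naive mice at 4 weeks had 9.71, 9.93 and 10.04 and sham mice 9.87, 9.79 and 10.19, and Nr4a1 changed by 0.01 in naive and -0.05 in sham mice.

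Egr1, a zinc finger factor, was 7.52, 7.37 and 6.21 at 4 weeks and 6.06, 6.41 and 6.10 at 16 weeks (-0.84 ± 0.22; limma adjusted p = 0.046). Its groups overlapped, since replicate 3 at 4 weeks lay below replicate 2 at 16 weeks. Fos did not pass (-1.07 ± 0.34; limma adjusted p = 0.092), with 7.54 on replicate 1 at 4 weeks, 5.82 and 5.17 on the other two, and 5.02 to 5.21 at 16 weeks. Egr3 was 5.79, 6.15 and 5.73 and then 5.32, 5.37 and 5.21 (-0.59 ± 0.14), and Ier2 was 5.60, 5.07 and 5.02 and then 4.77, 4.58 and 4.51 (-0.61 ± 0.13). Arc, a synaptic activity gene, and Nr4a3, a second nuclear receptor of the Nr4a family, fell by 0.37 and 0.44. The levels of Ier2, Nr4a3, Arc and Egr3, and of Fos at 16 weeks and on replicate 3 at 4 weeks, were close to those of the negative control probes. The array medians of these probes were 5.06 to 5.35, and differences at such levels are compressed. Nr4a1, at a mean of 9.98, was well above them.

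The mean over the list was 7.29, 7.01 and 6.74 on the 4-week arrays, 6.68, 6.67 and 6.80 on the 8-week arrays and 6.62, 6.83 and 6.53 on the 16-week arrays, with replicate 1 at 4 weeks the highest of all and replicate 3 at 4 weeks below replicate 2 at 16 weeks. Without replicate 1 at 4 weeks 0 members passed and the median was -0.24, and without replicate 2 or replicate 3 at 16 weeks 1 did. The list median was -0.03 in naive and -0.01 in sham mice, with 0 members lower past the threshold in naive mice. The change in DMM minus the change in naive was -0.85 for Nr4a1 (limma adjusted p = 0.295) and -1.13 for Egr1 (limma adjusted p = 0.285), and 0 members passed that test.

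**Figure D3:**
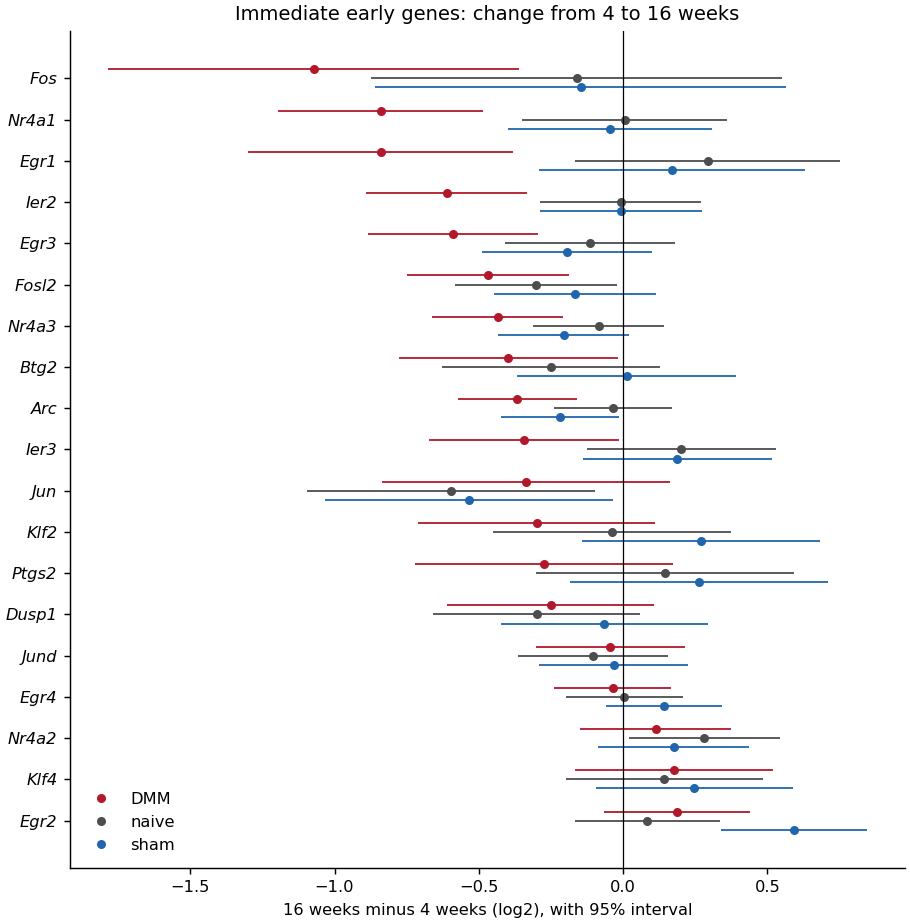
Difference between 16 and 4 weeks (log2) of the 19 immediate early genes tested, with 95% intervals from limma, for DMM, naive and sham mice. Nr4a1 lies at -0.84 in DMM mice against 0.01 and -0.05 in naive and sham mice.

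Cyclic AMP and calcium signals reach many immediate early genes through the factor CREB, which binds a cyclic AMP response element (CRE). The promoters of Nr4a1 and Nr4a3 (RefSeq table, GRCm38.p6) are shown as examples, 2 of the 6 members that fell. That of Egr1 was not analysed here, and Ier2, Egr3 and Arc have no promoter entry in the RefSeq table. Each is the 250 bases before the gene's start, 5′ to 3′ on the gene's strand, with CRE cores (TGACG or its reverse complement CGTCA) in capitals.
Nr4a1, chr15:101266596-101266845, plus strand: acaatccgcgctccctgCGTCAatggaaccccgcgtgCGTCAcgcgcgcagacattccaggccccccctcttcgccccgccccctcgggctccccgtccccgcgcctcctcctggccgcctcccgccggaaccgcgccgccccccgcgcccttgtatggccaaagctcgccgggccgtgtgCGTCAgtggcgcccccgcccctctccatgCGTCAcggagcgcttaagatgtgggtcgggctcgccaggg
Nr4a3, chr4:48045055-48045304, plus strand: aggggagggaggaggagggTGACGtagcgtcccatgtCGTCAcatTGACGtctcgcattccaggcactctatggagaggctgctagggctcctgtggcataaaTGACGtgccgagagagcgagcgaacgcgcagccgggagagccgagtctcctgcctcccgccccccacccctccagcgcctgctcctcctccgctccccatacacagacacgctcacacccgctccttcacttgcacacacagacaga
Each holds 4 cores, beginning at -233, -213, -69 and -40 in Nr4a1 and at -231, -213, -205 and -147 in Nr4a3, counted from the start. Of the 32851 promoters in the table, 17.8% hold at least 1 core in such a window and 0.137% hold 4 or more. As 4 is the count found in these 2 windows, the shares are no test of them. The full element TGACGTCA is in neither window, and in 1.55% of all promoters. These are letter matches and say nothing of binding.

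Ddit4 had the largest named fall. It encodes an inhibitor of the growth kinase complex mTORC1 and is known as a gene of stress and glucocorticoid responses. It was 8.37, 8.64 and 8.14 at 4 weeks and 7.69, 7.74 and 7.18 at 16 weeks (-0.85 ± 0.17; limma adjusted p = 0.014), with no overlap. It also fell in naive mice (-0.73), and was at -0.47 in sham mice without passing. Lynx1, which binds nicotinic acetylcholine receptors and dampens them, was 12.88, 12.66 and 12.71 and then 12.08, 11.93 and 12.27 (-0.66 ± 0.16; limma adjusted p = 0.035). Eef1e1, a protein of the multi-tRNA synthetase complex, was 14.23, 14.05 and 14.31 and then 13.52, 13.57 and 13.54 (-0.66 ± 0.15; limma adjusted p = 0.027). The phosphatase gene Dusp18, Stbd1, whose product binds glycogen, and Smim15 fell by 0.62, 0.53 and 0.53. Vmn1r208, a vomeronasal receptor gene, fell by 0.69, at levels of 4.67 to 5.76 that lie around the negative controls.

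Of the collagen and matrix assembly genes 2 fell (1.80% of all genes were called lower). Col15a1, a collagen of basement membrane zones, was 7.88, 7.75 and 7.67 on the 4-week arrays, 7.07, 7.14 and 7.31 on the 8-week arrays and 7.24, 7.32 and 7.08 on the 16-week arrays (-0.56 ± 0.09; limma adjusted p = 0.0080). All later arrays were below all arrays at 4 weeks. It was the only 1 of 18 collagen genes called in DMM mice, and it also fell in naive mice (-0.67), with -0.27 in sham mice. Tnc, the matrix glycoprotein tenascin C, was the only 1 of 21 matrix assembly genes called (-0.39 ± 0.10). Lgals1, encoding galectin 1, is in neither list and was chosen after its values were seen. It was 14.45, 14.48 and 14.14 and then 13.90, 13.88 and 13.87 (-0.47 ± 0.12; limma adjusted p = 0.044).

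Nerve injury genes were mostly lower at 16 weeks, but 1 of 22 passed (1.80% of all genes were called lower). This was Stmn4, a microtubule regulator of the stathmin family, at 7.08, 7.45 and 6.76 on the 4-week arrays, 6.50, 7.16 and 6.75 on the 8-week arrays and 6.40, 6.29 and 6.48 on the 16-week arrays (-0.71 ± 0.16; limma adjusted p = 0.025). Of the 22, 20 were below 0, with a median of -0.30. Sprr1a, a growth cone gene of injured neurons, was 8.86, 12.88 and 8.09 at 4 weeks and 5.90, 6.89 and 7.15 at 16 weeks, so replicate 2 at 4 weeks stood far above the others. Its difference of -3.30 ± 1.54 did not pass (limma adjusted p = 0.260). Atf3 was 7.68, 9.23 and 7.20 and then 6.76, 6.72 and 6.76 (-1.29 ± 0.48; limma adjusted p = 0.153), again highest on replicate 2 at 4 weeks. The neuropeptide genes Npy (-2.07) and Nts (-1.49) did not pass either.

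Naive mice showed the larger differences on this list. Their median was -0.92 with 16 of 22 members called lower (12.7% of all genes were), against -0.43 and 1 called lower in sham mice (0.834% of all genes). Sprr1a in naive mice was 13.04, 13.11 and 13.02 at 4 weeks and 5.32, 6.36 and 6.03 at 16 weeks. All 3 naive arrays at 4 weeks were above all 3 DMM arrays at that time. The change in DMM minus the change in naive passed for 0 of the 22, with limma adjusted p = 0.542 for Sprr1a and 0.561 for Atf3.

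**Figure D4:**
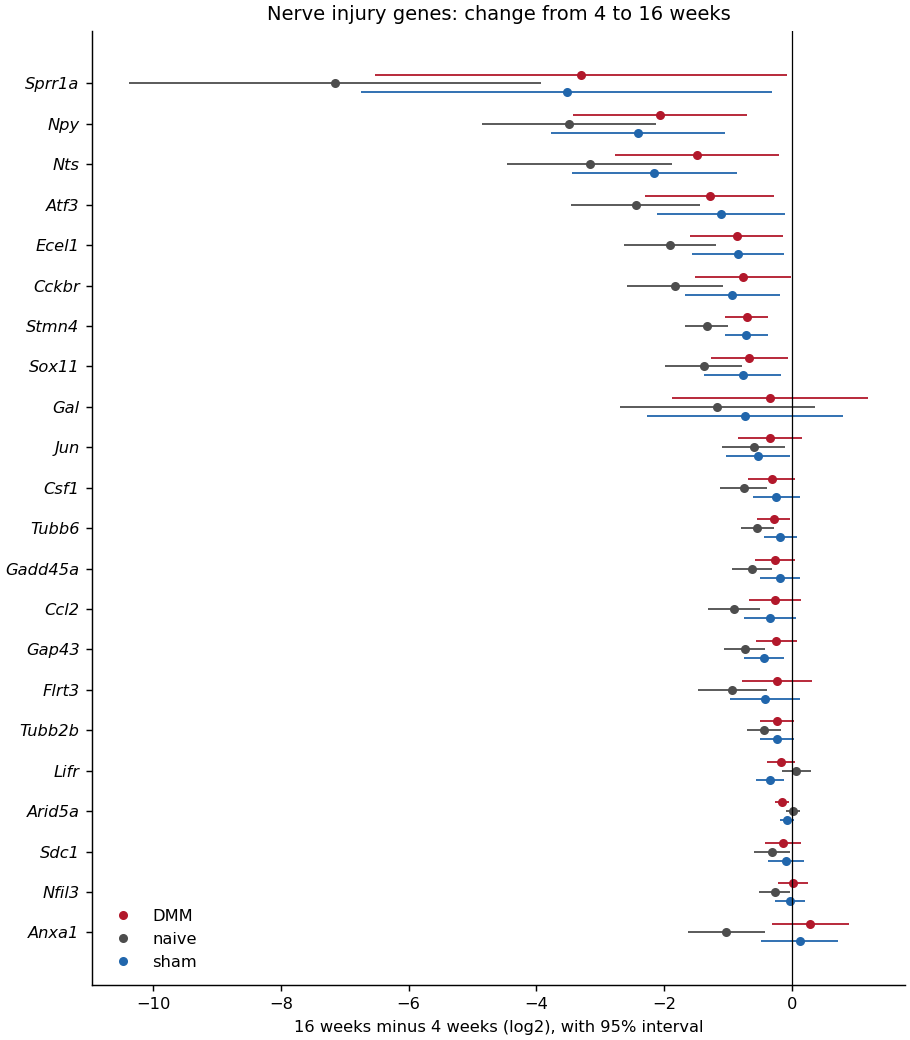
Difference between 16 and 4 weeks (log2) of the 22 nerve injury genes tested, with 95% intervals from limma, for DMM, naive and sham mice. Most points lie below 0 in all 3 groups, and the naive difference of Sprr1a (-7.16) is larger than that in DMM mice (-3.30).

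Of 18 clock genes tested 1 passed, and it rose (1.08% of all genes were called higher). The circadian clock is a feedback loop in which Clock and Arntl switch on the Per and Cry repressors and output factors such as Dbp. Per3 was 6.03, 6.22 and 6.18 on the 4-week arrays, 6.55, 5.98 and 6.84 on the 8-week arrays and 6.85, 7.25 and 6.69 on the 16-week arrays (0.79 ± 0.17; 1.73-fold; limma adjusted p = 0.022). It rose in naive mice (0.58) and in sham mice (0.76) as well, but from higher levels: 6.85 to 7.18 in naive and 6.48 to 6.89 in sham mice at 4 weeks. Of the 18, 15 were above 0, with a median of 0.12. Nr1d1, at 7.85, 8.27 and 8.27 and then 8.68, 9.40 and 9.13, did not pass (0.94 ± 0.27; limma adjusted p = 0.067), nor did Dbp (0.65) or Arntl (-0.19). The hour at which tissue was taken is not given in the sources used here.

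Dbp and its relatives bind a D-box. The Per3 promoter (RefSeq, GRCm38.p6, the 250 bases before the start on the gene's strand) is shown because it holds 2 copies of the D-box TTATGTAA, in capitals.
Per3, chr4:151044666-151044915, minus strand: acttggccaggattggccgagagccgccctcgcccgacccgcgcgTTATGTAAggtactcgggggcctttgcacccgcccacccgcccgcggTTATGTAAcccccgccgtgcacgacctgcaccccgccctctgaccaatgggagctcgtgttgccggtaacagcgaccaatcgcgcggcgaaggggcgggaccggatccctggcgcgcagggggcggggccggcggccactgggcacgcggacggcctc
They begin at -205 and -158. The D-box, on either strand (TTACATAA), was in 0.819% of the 32851 promoters, and 0.0183% held 2 or more. As the Per3 promoter was chosen for its matches, these shares are no test of it, and letter matches say nothing of binding.

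Of the other genes called, chosen after their values were seen, 4 were glutathione S-transferases, enzymes that couple glutathione to reactive compounds (4 of 17 tested, against 1.08% of all genes called higher). Gstm1 was 10.99, 11.01 and 11.13 at 4 weeks and 11.53, 11.97 and 11.44 at 16 weeks (0.61 ± 0.15; limma adjusted p = 0.037). Gstz1 was 9.88, 10.00 and 9.93 and then 10.48, 10.54 and 10.60 (0.60 ± 0.10; limma adjusted p = 0.0076). Gstt1 and Gstm3 rose by 0.61 and 0.41. Of the 17 members 11 were above 0, with a median of 0.07, and the Gstm genes are close copies whose probes may share signal. Gstm1, Gstt1, Gstz1 and Gstm3 also rose in sham mice, by 0.96, 0.73, 0.45 and 0.50, and Gstm1 and Gstt1 in naive mice, by 0.60 and 0.46.

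Arsb, a lysosomal sulfatase of matrix sugar chains, had 10.20, 10.21 and 10.22 at 4 weeks and 10.51, 10.78 and 10.69 at 16 weeks (0.45 ± 0.07; limma adjusted p = 0.0070). Slc17a5, the lysosomal sialic acid transporter, rose by 0.42. Pank3, a pantothenate kinase that starts coenzyme A synthesis, was 12.32, 12.30 and 12.37 and then 11.92, 11.96 and 11.90 (-0.40 ± 0.05; limma adjusted p = 0.0034). Vegfd, a growth factor for lymphatic vessels, was 6.37, 6.36 and 6.34 and then 6.77, 6.87 and 6.82 (0.47 ± 0.07; limma adjusted p = 0.0076). For all 3 of Arsb, Pank3 and Vegfd the spread at each time was small beside the difference. Fli1, an ETS factor of endothelium and blood cells, rose by 0.48, Klf5 by 0.56 and Il17rc, a receptor chain for interleukin 17, by 0.45. Pdgfrb, a receptor of pericytes, rose by 0.47. It was the only 1 of 12 pericyte and smooth muscle genes called (1.08% of all genes were called higher).

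Of 15 genes of pain and neuroimmune signalling 11 were tested and 0 passed. Tac1, the substance P gene, differed by -0.12, the sodium channel genes Scn9a and Scn10a by -0.05 and 0.09, the opioid receptor gene Oprm1 by -0.14, Ccl2 by -0.26, Ccr2 by -0.09, Csf1 by -0.31 and Tlr4 by -0.14. Of 19 macrophage markers 10 were above 0 and 0 passed, with a median of 0.01, while in naive mice all 19 were below 0 and 14 fell (median -0.62; 12.7% of all genes fell there). In sham mice 13 were above 0 and 1 rose (median 0.10; 0.928% of all genes rose there). The change in DMM minus the change in naive was above 0 for all 19 (median 0.60), but it passed for 0 of them. The mean of the macrophage list was 6.92 to 6.98 on the DMM arrays at 4 weeks and 6.82 to 7.09 at 16 weeks.

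Tapbp, a chaperone of class I antigen loading, was 9.65, 9.62 and 9.45 at 4 weeks and 9.71, 9.95 and 10.17 at 16 weeks (0.37 ± 0.08; limma adjusted p = 0.025). Of 11 class I genes it was the only 1 called (1.08% of all genes were called higher). The mean of that list was 9.30 on replicate 3 at 16 weeks against 8.28 to 8.59 on the 5 other arrays. The mean of 29 interferon-stimulated genes was likewise highest on that array, at 7.55 against 6.71 to 7.21, with 0 members called. The 9 neutrophil genes tested had a median of 0.35 with 0 called. The sodium, potassium and calcium channel lists, of 11, 18 and 13 genes, had 0 called and medians of 0.04, -0.06 and -0.00.

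Most of what passed in DMM mice also moved in naive mice over the same ages. In naive mice 3811 genes passed (18.8%; 1232 higher and 2579 lower) and in sham mice 357 (1.76%), with none of their arrays shared with the DMM comparison. Of the 582 DMM calls 425 also passed in naive mice in the same direction, which is 73.0% of the DMM calls and 11.2% of the naive calls. In sham mice 88 did, which is 15.1% of the DMM and 24.6% of the sham calls. None passed in the opposite direction in either. The comparisons share no arrays but do share each gene's spread in the fit, so their calls are not independent. Identical copies of small RNA genes also count more than once here. Of the 582, 562 (96.6%) had the same sign in naive and 541 (93.0%) in sham mice, against 68.7% and 68.6% of all genes tested.

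The change in DMM minus the change in naive passed for 1 gene (0.00494%), with 2144 (10.6%) at an unadjusted p under 0.05. This was the pseudogene Gm12599, which differed by 0.10 in DMM and -0.57 in naive mice. The change in DMM minus the change in sham passed for 0 genes in limma, with 1193 (5.89%) at an unadjusted p under 0.05. Its smallest adjusted p was 0.064, for Gm25835, which was 10.70, 10.49 and 10.66 at 4 weeks and 9.85, 10.02 and 9.63 at 16 weeks in DMM mice and differed by 0.07 in sham mice. Between 8 and 16 weeks 0 genes passed in limma, with 2310 (11.4%) at an unadjusted p under 0.05, and without replicate 3 at 16 weeks 200 did.

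**Figure D5:**
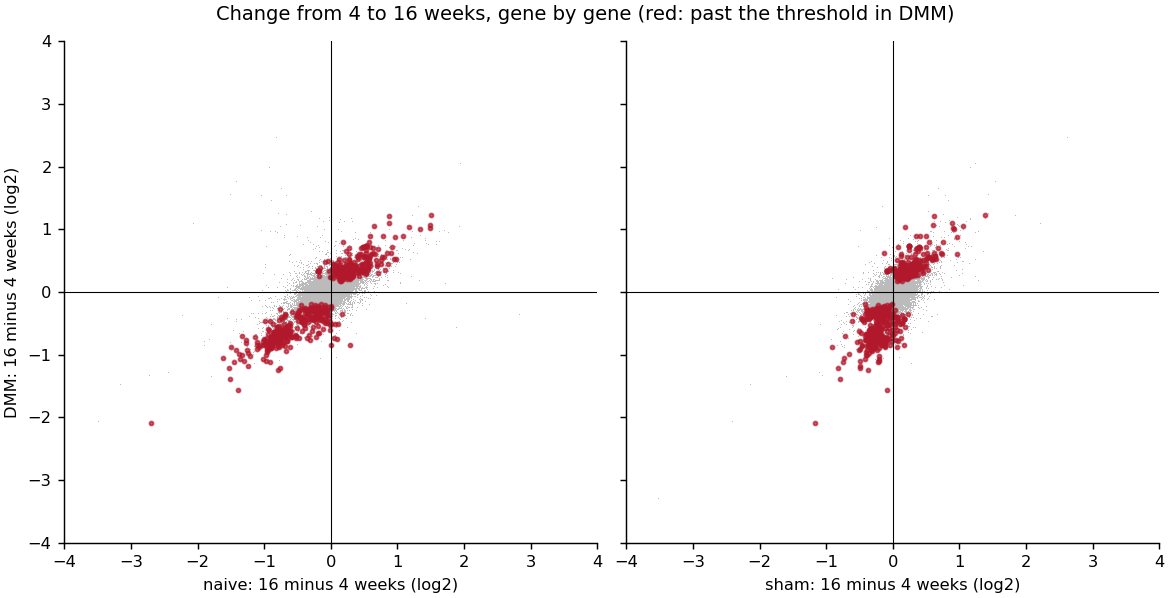
Difference between 16 and 4 weeks (log2) in DMM mice against that in naive mice (left) and sham mice (right), 1 point per gene for the 20260 tested, with the 582 past the threshold in DMM mice in red. Of the red points 562 have the same sign in naive and 541 in sham mice, and Sprr1a, at -7.16 in naive mice, lies outside the left panel.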

How the data were processed

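RNA of 25 ganglion samples was read on an array of 72685 probe sets, 6729 of them controls, with biotin labelling by the manufacturer's protocol, per the labels. The authors deposited log2 values, 1 per probe set and array. The log2 scale was read from the values (2.23 to 19.7, array medians 4.88 to 4.97). The sources used here do not give the normalization, summary method, software or array build. Arrays have no read depth, and their number limits the precision.

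Of 65956 transcript probe sets, 30604 carried 1 gene symbol in the platform annotation, 2146 several and 33206 none. Only the first kind was named, with 827 symbols updated by Entrez identifier. Where a gene had several probe sets (355 genes), that of highest mean was used, which gave 30142 genes. Genes with a mean above the 40th percentile of probe set means (4.52) were tested. Gene types came from RefSeq.

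All 25 arrays entered a single limma fit (limma 3.58.1, R 4.3.3) of the 9 group means on the deposited log2 values, in which a gene's spread is shared by the groups (16 residual and 3.28 prior degrees of freedom). Sham at 8 weeks, with 1 array, was taken to vary as the others do. Tests were two-sided, Benjamini-Hochberg adjusted over 20260 genes, and the procedure was tested on simulated data. The simulated noise was independent between genes and arrays, so that trial did not cover deviations shared by a whole array. The DMM comparisons between times share arrays with each other.

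The comparison and the 53 gene lists (898 entries, 795 on the array), written from general knowledge, were chosen with earlier results of these data known. The naming rule takes the 12 largest differences in each direction among called genes without overlap (no predicted genes, pseudogenes or small RNA genes), up to 6 members of a list, and 15 pain genes. Alternatives were other filters, normalizations, priors, array weights, probe set means, the replicate number as a block, the compared arrays alone, and each array left out in turn.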

Additional observations from a re-analysis of the deposited data

Results flagged for a closer look

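The predicted pseudogene Gm12599 changed differently in DMM and naive mice between 4 and 16 weeks, by a test of that difference (0.66 ± 0.10 SE; limma adjusted p = 0.040). In DMM mice it was 8.37, 8.39 and 8.45 at 4 weeks and 8.49, 8.60 and 8.42 at 16 weeks, so those arrays overlapped. In naive mice it was 8.81, 8.56 and 8.61 and then 8.13, 8.14 and 8.00. In sham mice it was 8.23, 8.20 and 8.15 and then 8.47, 8.28 and 8.32. The count of 1 gene in that test went to between 0 and 16 when single arrays were left out, and the cause was not tested.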

How the results depend on the processing

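The count of 582 genes became 365 with no filter, 1233 with quantile normalization, 902 with array weights and 4 with the compared arrays alone. Leaving out one array gave 9 to 771. The other alternatives gave 539 to 687. With the replicate number as a block it was 539, of which 472 were among the 582. The correlation of deviations between equal numbers at 4 and 16 weeks was 0.06, -0.08 and -0.29 in DMM mice. No pairing by number was thus seen between these groups, and other groups are not covered by these values. For naive mice the count of 3811 stayed within 1.5 times, except when single arrays were left out (2164 to 3083). For sham mice 357 became 191 with no filter, 577 with the stricter filter, 769 with quantile normalization, 614 with cyclic loess, 916 with array weights, 204 with the replicate block and 0 with the compared arrays alone, and 7 to 268 when single arrays were left out. Between 4 and 8 weeks, 4 became 1 with no filter, 17 with the stricter filter, 11 with quantile normalization, 20 with array weights and 0 with the compared arrays alone, and 1 to 6 when single arrays were left out. Between 8 and 16 weeks, 0 became 1 with no filter and 0 to 200 when single arrays were left out. For DMM minus naive, 1 became 0 with no filter, with cyclic loess and with the compared arrays alone. For DMM minus sham, 0 became 1 with the stricter filter and with array weights, and 0 or 1 when single arrays were left out. The causes were not tested. Fewer arrays or more genes tested are part of some of these alternatives by construction. No call among the 582 changed direction in any alternative. For most alternatives this was fixed in advance, since 578 of the calls had no overlap or the fit kept the same difference. Genes near the negative control level have compressed differences.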

Other observations

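Of 24 oxidative phosphorylation genes 15 were below 0 and 1 fell (1.80% of all genes did), Atp5l, a subunit of the mitochondrial ATP synthase. It was 13.44, 13.29 and 13.49 at 4 weeks and 13.23, 13.01 and 12.78 at 16 weeks (-0.40 ± 0.10; limma adjusted p = 0.036), and it fell by 0.74 in naive mice, with 0.00 in sham mice. The list median was -0.07 in DMM and -0.22 in naive mice, where 12 members fell (12.7% of all genes did). In sham mice it was 0.09, with 20 members above 0 and 2 called higher (0.928% of all genes were). The change in DMM minus the change in naive or in sham passed for 0 of the 24. Of 12 markers of non-peptidergic nociceptors, the sensory neurons of skin pain and itch, 10 were above 0 with a median of 0.16 and 0 passed, while 7 rose in naive mice (6.08% of all genes did) and 0 in sham mice (median 0.09). For these 12 markers the change in DMM minus the change in naive passed for 0. The itch peptide gene Sst differed by 0.97 and the receptor gene Mrgprb4 by 0.95. Of 15 heat shock and cold-inducible genes 10 were below 0 with a median of -0.14 and 0 passed. The chaperone genes Hsph1 and Hspa1a differed by -0.60 and -0.52.

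The erythrocyte list, with 2 genes measured, had a mean of 5.44 to 7.18 on the DMM arrays at 16 weeks, 5.77 to 6.05 at 4 weeks and 6.14 to 8.60 at 8 weeks, so blood markers were most uneven at 8 weeks. Pnpla2, a triglyceride lipase, was 9.05, 9.0 and 8.72 at 4 weeks and 9.03, 9.53 and 9.82 at 16 weeks. It was called (0.53 ± 0.14; limma adjusted p = 0.042) although replicate 1 at 16 weeks lay within the range at 4 weeks, and it rose by 0.98 in naive mice.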
